A study of Mus musculus with 12 samples.

Results

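The Hedgehog pathway genes described here are Ihh, Ptch1, Smo, Gli1, Gli2, Gli3, Hhip, Gas1 and Boc, followed across uteri of estradiol-treated and saline-treated mice. They were taken by name, as every probe whose listed name or current gene symbol is one of these 9 genes, which gave 18 of the 41174 probes on the array and 9 of 27666 named genes. The rule uses names only. A probe was tested where every array of some group read it well above background, which held for 13 of the 18 probes, and each of the 9 genes kept at least 1 tested probe. Another 3 probes, 1 of Gli3 and 2 of Boc, were well above background on no array.

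The 4 groups held 3 mice each, with 1 single-colour array per mouse. They were EAAE mice given estradiol (E2), EAAE mice given saline, wild-type (WT) mice given E2 and WT mice given saline. EAAE is given as the Esr1 genotype, Esr1 being the gene of estrogen receptor alpha, and the series title calls that receptor deficient in DNA binding. All mice were ovariectomized adult females of at least 10 weeks on a C57bl6/Jx129 background, rested for 10 to 14 days, injected with 100 ul of E2 (dose not stated in the sources used here) or saline, and sampled 2 h later. Whole uterus was profiled, so a change can come from fewer cells of a type or from less RNA per cell, and these cannot be told apart. The labels name no cell type or promoter that would restrict the EAAE change. Esr1 itself was well above background on every array. Its level does not check the genotype, because the change is described as one of DNA binding.

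In Hedgehog signalling a secreted ligand binds Ptch1 on a neighbouring cell, which frees the membrane protein Smo, and Smo in turn lets the Gli transcription factors act as activators. Gli1 is mostly an activator and is itself a target, Gli2 is the main activator, and Gli3 serves largely as a repressor. Ptch1 and Hhip are also targets and hold the pathway back, Hhip as a membrane-bound decoy for the ligand, while Gas1 and Boc are coreceptors that help the ligand reach Ptch1. In the mouse uterus Ihh is made by the epithelium under progesterone and acts on the stroma beneath it, through Ptch1, Gli factors and Nr2f2.

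Promoter sequences of 7 of the 9 genes were taken from RefSeq (GRCm38.p6), each 300 bases running from 250 before to 50 after the start of the gene. The 4 genes shown are Ihh, which was higher after E2 in WT uteri, Ptch1 and Gas1, which were lower, and Gli2, which was lower in EAAE than in WT uteri. The sequences are given so that the motif counts can be read against their letters. Capitals mark the GC box GGGCGG on either strand, so CCGCCC marks it on the opposite strand. The windows are chr1:74951623-74951922 for Ihh, chr13:63565686-63565985 for Ptch1, chr13:60177486-60177785 for Gas1 and chr1:119053570-119053869 for Gli2, all on the minus strand.
Ihh: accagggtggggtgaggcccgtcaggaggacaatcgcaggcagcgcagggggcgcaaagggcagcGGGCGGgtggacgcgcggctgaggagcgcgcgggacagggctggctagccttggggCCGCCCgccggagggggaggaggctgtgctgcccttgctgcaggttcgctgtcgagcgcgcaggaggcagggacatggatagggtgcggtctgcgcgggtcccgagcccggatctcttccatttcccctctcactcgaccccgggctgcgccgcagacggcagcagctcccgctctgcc
Ptch1: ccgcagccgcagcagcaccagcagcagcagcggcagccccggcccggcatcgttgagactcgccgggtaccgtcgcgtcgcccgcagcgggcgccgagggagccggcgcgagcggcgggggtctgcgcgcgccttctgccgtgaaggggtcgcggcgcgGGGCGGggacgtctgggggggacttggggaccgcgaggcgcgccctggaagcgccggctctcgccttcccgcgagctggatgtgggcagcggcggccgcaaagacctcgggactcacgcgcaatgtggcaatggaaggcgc
Gas1: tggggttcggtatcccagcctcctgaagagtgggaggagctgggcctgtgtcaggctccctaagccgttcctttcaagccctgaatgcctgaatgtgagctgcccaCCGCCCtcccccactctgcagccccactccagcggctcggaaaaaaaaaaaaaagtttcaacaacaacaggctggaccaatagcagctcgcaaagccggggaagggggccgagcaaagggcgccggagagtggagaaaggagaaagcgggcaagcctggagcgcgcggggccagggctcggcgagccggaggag
Gli2: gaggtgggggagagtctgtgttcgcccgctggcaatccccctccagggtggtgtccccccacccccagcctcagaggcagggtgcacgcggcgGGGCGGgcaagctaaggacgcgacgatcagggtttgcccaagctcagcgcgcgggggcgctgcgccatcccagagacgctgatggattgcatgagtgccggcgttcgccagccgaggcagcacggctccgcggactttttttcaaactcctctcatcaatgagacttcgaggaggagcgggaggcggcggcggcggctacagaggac

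The 5 motifs were searched on both strands of the 7 windows and of all 32851 promoters of the same length. The GLI motif GACCACCCA was found in 0 of the 7 windows and in 0.253% of all promoters. The full estrogen response element, in which GGTCA and its reverse complement stand 3 bases apart, was found in 0 of 7 and in 0.07% of all. Its single repeat GGTCA was found in 1 of 7, that of Gli3, and in 40.5% of all, and the longer element contains it. The AP-1 motif TGANTCA was found in 0 of 7 and in 7.81% of all. The GC box was the motif most of the genes shared: it stood in 6 of 7 windows, all but that of Smo, and in 35.7% of all promoters. Bases G and C made up 72.7% of the Ihh window, 76.3% of the Ptch1 window, 62.3% of the Gas1 window and 67.3% of the Gli2 window. A match describes letters only.

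Each array measures a gene through 60-base probes, and 2 of these are shown because they carry the statements on Smo and Gli1. The Smo probe shown has mm7 coordinates chr6:29687728-29688961 on the plus strand, a stretch longer than the probe itself, so its letters come from separate blocks of the chromosome. The Gli1 probe lies at chr10:126832331-126832390 on the minus strand and was printed on 10 spots of every array.
Smo: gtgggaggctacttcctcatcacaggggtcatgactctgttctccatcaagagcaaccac
Gli1: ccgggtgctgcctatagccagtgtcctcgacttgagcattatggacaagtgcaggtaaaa

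All levels below are log2 intensities relative to the 75th percentile of the same array, so 0 marks that percentile, and levels of different genes or probes are not set against each other. Differences are log2 differences of these levels with their standard error (SE), tested with limma over all 12 arrays, with adjusted p by Benjamini-Hochberg over 19301 genes and a threshold of 0.05. "Rose", "fell" and "called" are kept for values past that threshold. Over the brightest tested probe of each gene, r lay between 0.9825 and 0.9935 for the 12 array pairs of the same group. It lay between 0.9184 and 0.9883 for the 54 pairs of different groups. Between 63.4 and 73.6% of probes were well above background on an array. The arrays lay on 3 slides, of which slide 1 held 1 array of each group. EAAE saline mice 1 and 3 lay on slide 2, without a WT saline mouse. WT saline mice 2 and 3 lay on slide 3, without an EAAE saline mouse. WT saline mice lay at positions 1, 1 and 2 and EAAE saline mice at 2, 3 and 3. Genotype under saline is thus largely mixed with slide and position. Position 4 of each slide held an EAAE E2 array and no other array did, so for that group position and group cannot be told apart. One array stood apart for Ihh, that of EAAE E2 mouse 3, and results that rest on it are given with and without it.

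**Figure D1:**
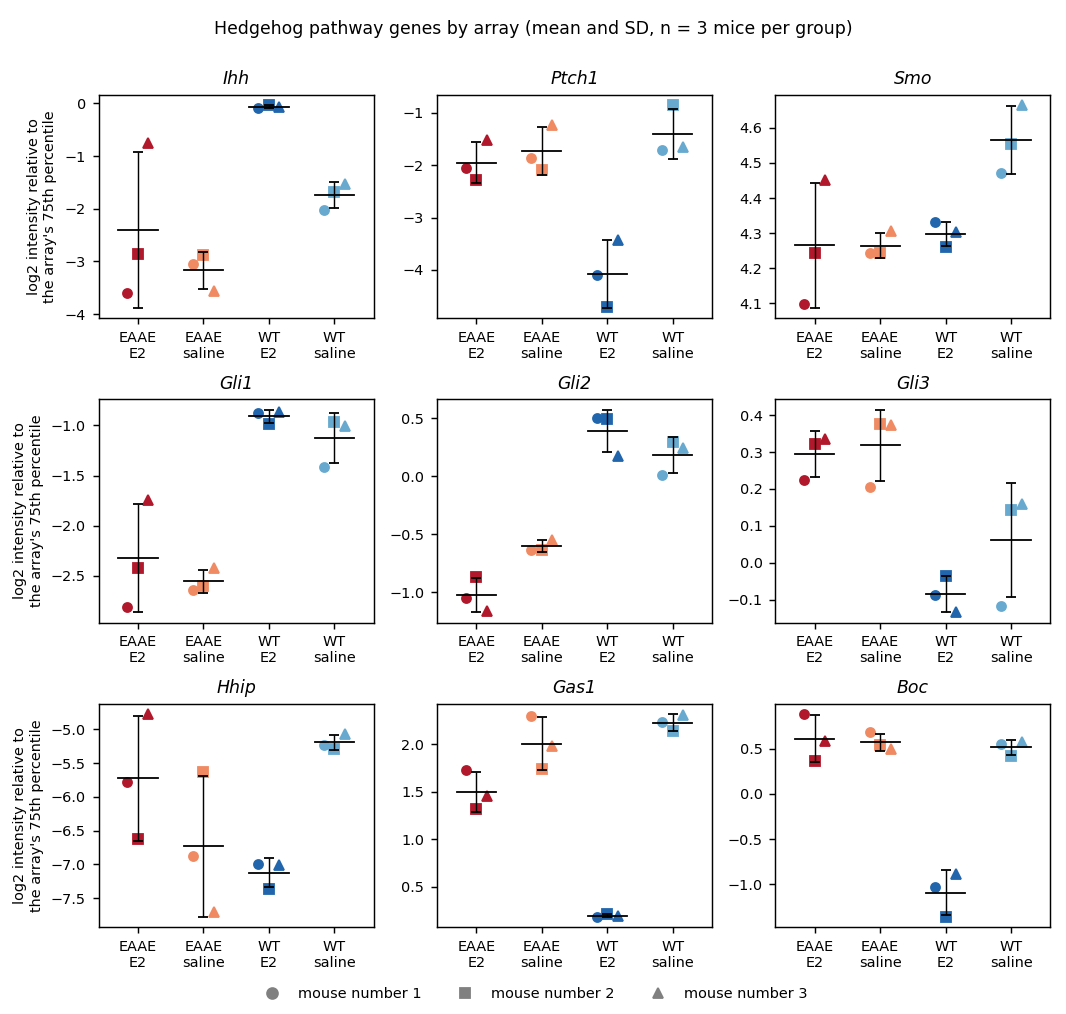
Level of each of the 9 genes on each of the 12 arrays, as log2 intensity relative to the array's 75th percentile (y axis, a separate scale for each gene), by group (x axis). Symbols are single mice, long bars are means and error bars are SD with n = 3. The WT E2 arrays lie below all others for Ptch1, Gas1 and Boc, both EAAE groups lie below both WT groups for Gli1 and Gli2, and EAAE E2 mouse 3 lies far above the other EAAE mice for Ihh.

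The ligand Ihh was higher after E2 in WT uteri. Its brighter probe, at chr1:75185454-75185513 (mm7, minus strand) and printed on 10 spots, read -3.60, -2.86 and -0.74 in EAAE E2 mice 1, 2 and 3, against -3.05, -2.88 and -3.56 in EAAE saline mice. It read -0.09, -0.03 and -0.06 in WT E2 mice, against -2.02, -1.68 and -1.54 in WT saline mice. The WT E2 mice lay within 0.1 of each other and above every other array. EAAE E2 mouse 3 lay above the WT saline mice, and its group mates lay beside the EAAE saline mice, mouse 2 just above them and mouse 1 just below. Within an array the 10 spots had a median SD of 0.063, so the gap between the EAAE E2 mice is not one of single spots.

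E2 raised Ihh by 1.68 in WT uteri (SE 0.56, 3.21-fold, adjusted p = 0.0293), with no overlap between the groups. That call ended without any 1 of the 6 WT arrays, with adjusted p of 0.0529 to 0.0839 and differences of 1.55 to 1.79. The SE is shared by all groups, whose SDs were 1.48 in EAAE E2, 0.35 in EAAE saline, 0.03 in WT E2 and 0.25 in WT saline. Without EAAE E2 mouse 3 the WT difference was the same 1.68, with an SE of 0.22 (adjusted p = 0.000247). The response in EAAE uteri was 0.77 (95% interval -0.48 to 2.01, adjusted p = 0.535), and without EAAE E2 mouse 3 it was -0.06 (adjusted p = 0.928). The responses differed by -0.92 (EAAE minus WT, interval -2.68 to 0.84, adjusted p = 0.388), which was not called. Without EAAE E2 mouse 3 they differed by -1.75 (SE 0.34, adjusted p = 0.00382), which was.

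A second Ihh probe, at chr1:75187527-75187586, also read highest in WT E2 mice. It read -3.79, -2.50 and -1.23 in EAAE E2 mice, against -3.71, -3.27 and -3.72 in EAAE saline mice. In WT mice it read -0.56, -0.67 and -0.70 after E2, against -3.14, -2.95 and -2.64 after saline. Both probes thus put EAAE E2 mouse 3 highest among the EAAE mice and below the WT E2 mice. This probe gave 2.27 for E2 in WT (adjusted p = 0.00294 over all probes) and 1.06 in EAAE (adjusted p = 0.309).

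Between genotypes, Ihh was lower in EAAE than in WT uteri after E2, at -2.34 (SE 0.56, adjusted p = 0.00452), and at -3.17 (SE 0.25) without EAAE E2 mouse 3. With slide as a block and position as a linear term it was -1.13 (adjusted p = 0.379), which ended the call, and within slides 1, 2 and 3 it was -3.54, -2.77 and -0.72. Under saline it stood at -1.42 in EAAE against WT (SE 0.56, adjusted p = 0.0817), with no overlap between the groups. That difference was past the threshold without EAAE E2 mouse 3 (adjusted p = 0.00158), without EAAE E2 mouse 1 (0.0352) or with the 6 saline arrays alone (0.0042). The second probe gave -0.66 under saline (adjusted p = 0.338). By the means of the brighter probe Ihh was highest in WT E2, then WT saline, EAAE E2 and EAAE saline. On the second probe EAAE E2 (-2.51 ± 1.28) stood above WT saline (-2.91 ± 0.25, SD, n = 3 each), the other way round. The EAAE E2 mice overlapped the WT saline range and the EAAE saline range, so neither neighbour was set apart from that group.

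Ptch1, the receptor that holds the pathway off, fell steeply after E2 in WT uteri and not measurably in EAAE uteri. Its brighter probe (chr13:61331255-61331314, minus strand) read -2.05, -2.29 and -1.53 in EAAE E2 mice, against -1.87, -2.10 and -1.23 in EAAE saline mice. In WT mice it read -4.09, -4.72 and -3.43 after E2, against -1.71, -0.85 and -1.66 after saline. The 3 WT E2 mice lay below all 9 other mice, which overlapped freely.

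The fall in WT was -2.67 (SE 0.37, 6.37-fold lower, adjusted p = 0.000183). The EAAE difference was -0.23 (interval -1.04 to 0.59, adjusted p = 0.808), and the responses differed by 2.45 (SE 0.52, adjusted p = 0.00462). A second probe on 10 spots (chr13:61333864-61333923) gave -2.47 in WT and -0.10 in EAAE. It was well above background on 1 of 3 WT E2 arrays, so the WT value of that probe leans on dim readings. After E2, Ptch1 was 2.12 higher in EAAE than in WT uteri (SE 0.37, adjusted p = 0.00059). Under saline the brighter probe differed by -0.33 (adjusted p = 0.537) and the second by -0.93 (adjusted p = 0.0139 over all probes).

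**Figure D2:**
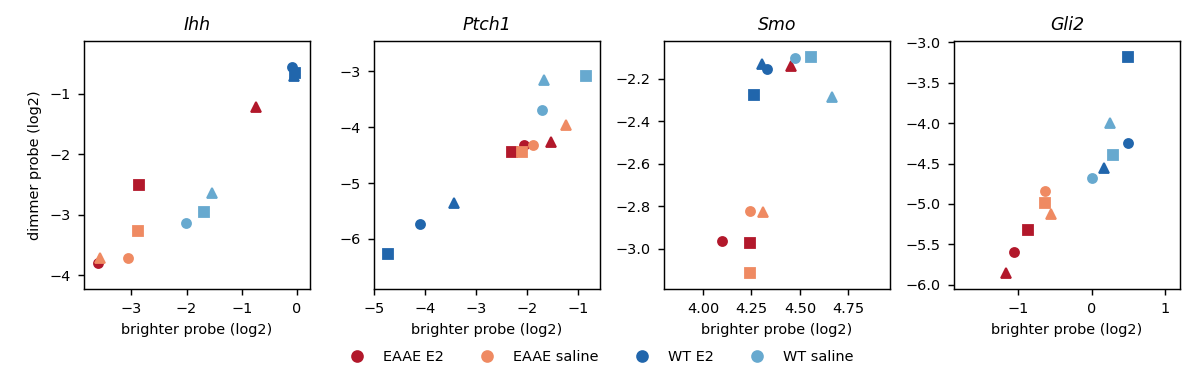
Readings of the 4 genes with 2 tested probes, each point 1 array, with the brighter probe on the x axis and the dimmer probe on the y axis (log2 intensity relative to the array's 75th percentile, equal spans on both axes within a panel). Symbols give the mouse number as in the plot of levels by array. The probes of Ptch1 and Gli2 place the group means in the same order. For Ihh, WT saline and EAAE E2 change places between the probes, and for Smo the dimmer probe separates EAAE saline from WT saline by -0.76 and the brighter by -0.30.

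The coreceptors Gas1 and Boc fell together with Ptch1 in WT uteri. Gas1, a lipid-anchored coreceptor (chr13:59283463-59283522, minus strand), read 1.73, 1.32 and 1.46 in EAAE E2 mice, against 2.30, 1.74 and 1.98 in EAAE saline mice. In WT mice it read 0.18, 0.21 and 0.19 after E2, against 2.24, 2.14 and 2.31 after saline. WT E2 mice lay below all others by more than 1, and the EAAE E2 mice, all lower than the EAAE saline mice, lay closer to saline levels than the WT E2 mice did.

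The E2 difference of Gas1 in WT was -2.04 (SE 0.14, 4.1-fold lower, adjusted p = 2.16e-06). The EAAE difference was -0.51 (SE 0.14), with no overlap between the groups, but did not pass (adjusted p = 0.118). The responses differed by 1.53 (SE 0.20, adjusted p = 0.000291). After E2, Gas1 was 1.31 higher in EAAE than in WT uteri (SE 0.14), and under saline it differed by -0.22 (adjusted p = 0.267).

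Boc, an immunoglobulin-family coreceptor (chr16:44263258-44263317, minus strand), read 0.88, 0.36 and 0.58 in EAAE E2 mice, against 0.68, 0.54 and 0.49 in EAAE saline mice. In WT mice it read -1.03, -1.36 and -0.89 after E2, against 0.55, 0.42 and 0.57 after saline. Only the WT E2 group stood apart, and the 3 other groups overlapped. The fall in WT was -1.60 (SE 0.15, 3.04-fold lower, adjusted p = 1.32e-05). In EAAE the difference was 0.04 (interval -0.29 to 0.37), and the responses differed by 1.64 (SE 0.21, adjusted p = 0.000245). After E2, Boc was 1.70 higher in EAAE than in WT uteri (SE 0.15, adjusted p = 5e-06). The 2 other Boc probes, well above background on no array, give no level to set beside this.

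Hhip, the decoy receptor, was near the limit of detection. Its probe (chr8:78506418-78506477, minus strand) read -5.78, -6.63 and -4.78 in EAAE E2 mice, of which 1 was well above background, against -6.87, -5.63 and -7.70 in EAAE saline mice, of which 0 were. It read -6.99, -7.37 and -7.01 in WT E2 mice, of which 0 were well above background, against -5.23, -5.28 and -5.07 in WT saline mice, of which 3 were. WT saline was thus the one group in which Hhip was measured on every array, and the gene passed the filter through that group alone. A second Hhip probe, not tested and well above background on 1 array, read -5.99 ± 0.29 in WT E2 mice and -6.33 ± 0.48 in WT saline mice (SD, n = 3 each), without the lower reading after E2. Against the lowest reading well above background on each array (-6.22 to -5.22), the mean over 3 mice was at least 1.34-fold lower in WT E2 than in WT saline uteri. The adjusted p of 0.0104 belongs to the fitted difference of -1.93, which uses readings under background, and with slide and position that difference was -0.89 (adjusted p = 0.182). It was at least 1.4-fold lower in EAAE saline than in WT saline uteri (adjusted p = 0.0465 for the fitted difference, a call that ended under several other settings). The fitted difference between the responses was 2.93 (SE 0.73, adjusted p = 0.0103), but it rests on groups whose readings were not well above background and is no measured fold.

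Smo, the signal transducer, moved little on its brighter probe and differed more between genotypes on its dimmer one. Its brighter probe (chr6:29693371-29693430, plus strand) read 4.10, 4.24 and 4.45 in EAAE E2 mice, against 4.24, 4.24 and 4.31 in EAAE saline mice. The WT readings were 4.33, 4.26 and 4.30 after E2, against 4.47, 4.56 and 4.67 after saline, so the WT saline mice lay highest. The differences were small: -0.27 for E2 in WT (SE 0.10, adjusted p = 0.0401) and -0.30 for EAAE against WT under saline (SE 0.10, adjusted p = 0.0384).

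Both Smo calls ended with the array median as the scale (adjusted p = 0.399 and 0.0968) and with slide as a block (0.0752 and 0.169). The probe printed above gave another picture for E2 in WT, at -0.02 (adjusted p = 0.931 over all probes), and a larger one between genotypes under saline, at -0.76 (adjusted p = 0.017). It read -2.82, -3.11 and -2.83 in EAAE saline mice, against -2.10, -2.10 and -2.29 in WT saline mice, without overlap. After E2 it gave -0.51 for EAAE against WT (adjusted p = 0.0485 over all probes), with overlap between the groups. The brighter probe, which stands for Smo in the counts, gave -0.03 there (adjusted p = 0.796). The E2 response of Smo in EAAE was 0.00 (interval -0.21 to 0.21) and the difference between the responses 0.27 (interval -0.03 to 0.57, adjusted p = 0.145).

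Gli1, the activator whose own transcript is a common readout of the pathway, differed by genotype and showed no measurable E2 response. On the 10-spot probe printed above it read -2.81, -2.42 and -1.75 in EAAE E2 mice, against -2.64, -2.60 and -2.43 in EAAE saline mice. The WT readings were -0.87, -0.99 and -0.87 after E2, against -1.41, -0.96 and -1.01 after saline. All 6 EAAE mice lay below all 6 WT mice, and within each genotype the E2 and saline mice overlapped.

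Gli1 was lower in EAAE than in WT uteri, at -1.43 under saline (SE 0.23, 2.69-fold, adjusted p = 0.00119) and at -1.42 after E2 (SE 0.23, adjusted p = 0.000353). With slide as a block and position as a linear term both calls ended, at -0.92 (adjusted p = 0.298) and -1.10 (adjusted p = 0.0685). The E2 response was 0.23 in EAAE (interval -0.28 to 0.73) and 0.22 in WT (interval -0.29 to 0.72). The difference between them was 0.01 (interval -0.70 to 0.73), a value whose sign turned with the array median and with slide as a block. EAAE E2 mouse 3 was highest among the EAAE mice for Gli1 too, by 0.87 over the mean of the other 2 in its group. That gap was 2.48 for Ihh, 1.43 for Hhip, 0.65 for Ptch1 and -0.21 for Gli2.

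Gli2, the main activator, was also lower in EAAE uteri. Its brighter probe (chr1:118695197-118695256, minus strand) read -1.05, -0.87 and -1.16 in EAAE E2 mice, against -0.63, -0.63 and -0.55 in EAAE saline mice. The WT readings were 0.50, 0.49 and 0.17 after E2, against 0.01, 0.29 and 0.25 after saline. All EAAE mice lay below all WT mice, and within EAAE all E2 mice lay below all saline mice.

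The genotypes differed by -0.79 under saline (SE 0.12, adjusted p = 0.00089) and by -1.41 after E2 (SE 0.12, 2.67-fold, adjusted p = 3.86e-06). With slide and position the call under saline ended, at -0.99 (adjusted p = 0.0851), and the call after E2 held, at -1.58 (adjusted p = 0.0025). The response was -0.42 in EAAE (SE 0.12, adjusted p = 0.12) and 0.21 in WT (SE 0.12, adjusted p = 0.177), neither called. The difference between these responses was called, at -0.63 (SE 0.17, adjusted p = 0.0149). A dimmer Gli2 probe (chr1:118696781-118696840) gave -0.97 for that difference (adjusted p = 0.111 over all probes), with 1 of 3 EAAE E2 arrays well above background.

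Gli3, largely a repressor, moved little. Its measured probe (chr13:15096631-15096690, plus strand) read 0.22, 0.32 and 0.34 in EAAE E2 mice, against 0.21, 0.38 and 0.37 in EAAE saline mice. The WT readings were -0.09, -0.04 and -0.13 after E2, against -0.12, 0.14 and 0.16 after saline. All EAAE mice lay above all WT mice, the opposite order to Gli1 and Gli2. The difference was 0.38 after E2 (SE 0.09, adjusted p = 0.00497, and 0.27 with adjusted p = 0.319 with slide and position) and 0.26 under saline (SE 0.09, adjusted p = 0.061). The E2 response was -0.02 in EAAE (interval -0.23 to 0.18) and -0.15 in WT (interval -0.35 to 0.06).

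**Figure D3:**
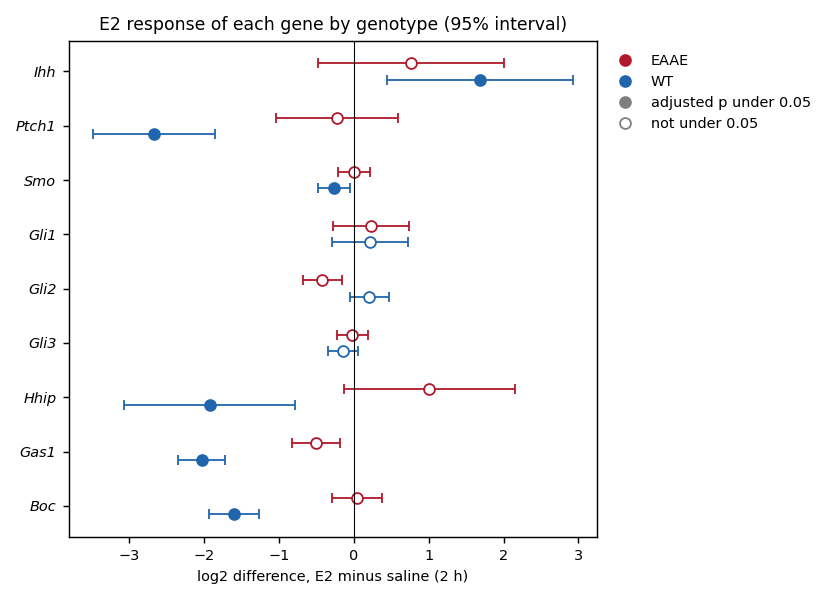
E2 response of each gene (log2 difference, E2 minus saline, x axis) in EAAE uteri (upper point of each pair, red) and WT uteri (lower point, blue), with 95% intervals from the limma fit and n = 3 mice per group. Filled points have an adjusted p under 0.05. The WT intervals of Ptch1, Gas1 and Boc lie wholly below the EAAE intervals, those of Gli1 and Gli3 overlap for most of their length, and the Hhip values come from readings of which most were not well above background.

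Counted over the 9 genes, E2 in EAAE changed 0 (limma, adjusted p under 0.05), where 1.44% of all genes were called, 0.684% higher and 0.751% lower. Gas1 and Gli2 were the genes with an unadjusted p under 0.05 there, at 0.00506 and 0.00523. In WT it changed 6, with Ihh higher and Ptch1, Gas1, Boc, Hhip and Smo lower, where 49.4% of all genes were called, 19.6% higher and 29.8% lower. Of these 6, Ptch1, Gas1 and Boc were called in 23 of 23 alternatives, Ihh in 17 of 23 and Smo in 10 of 23. Hhip was called in 21 of 22, but it passed the filter through WT saline alone. The responses differed for 5 (Ptch1, Gas1, Boc and Hhip higher, Gli2 lower, as EAAE minus WT), against 37.3% of all genes, of which the higher calls made up 22.2% of all genes. EAAE and WT differed under saline for 4 (Gli1, Gli2, Smo and Hhip, all lower in EAAE), against 29.6% of all genes, 14.5% higher and 15.1% lower. Of these 4, Gli1 and Gli2 were called in 22 of 23 alternatives each, Smo in 9 of 23 and Hhip in 6 of 22. The deposited table among these alternatives holds the same intensities, so it could not change a call. Fits without an E2 array leave these 4 differences unchanged and alter only their SE. The setting that ended the Gli1 and Gli2 calls was slide as a block with position as a linear term.

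After E2 the genotypes differed for 8 of the 9 genes, against 58.0% of all genes, 33.5% higher and 24.5% lower. Higher in EAAE were Ptch1, Gas1, Boc, Gli3 and Hhip, and lower were Ihh, Gli1 and Gli2. The Hhip call held in 9 of 22 alternatives, and without EAAE E2 mouse 3 the fitted difference was 0.92 (adjusted p = 0.146), which was not called. Because Hhip passed the filter only through WT saline, its calls support nothing by themselves. Among the 8 other genes the counts were 0 for E2 in EAAE, 5 for E2 in WT, 4 for the response difference, 3 for genotype under saline and 7 for genotype after E2. The median over the 9 genes was 0.00 for E2 in EAAE, -0.27 for E2 in WT, 0.27 for the difference between the responses, -0.33 for genotype under saline and 0.38 for genotype after E2. The same medians over all genes were 0.02, -0.15, 0.15, 0.00 and 0.11. The 2 responses use separate saline groups, but the response difference and the genotype comparisons share arrays with them, so these counts are not independent of each other. With the array median as the scale, the median of all genes for E2 in WT was -0.01, and the split of its calls was 4492 higher and 3949 lower instead of 3774 and 5753. For E2 in EAAE the split was then 128 higher and 75 lower instead of 132 and 145.

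Within slides the main directions could be read from 1 or 2 arrays a group. For E2 against saline in WT, slide 1 gave 1.96 for Ihh, -1.72 for Ptch1, -2.05 for Gas1 and -1.43 for Boc. Slide 3 gave 1.58 for Ihh, -3.46 for Ptch1, -2.01 for Gas1 and -1.86 for Boc. For EAAE against WT after E2, Gli1 gave -1.94, -1.55 and -0.76 on slides 1, 2 and 3, and Gli2 gave -1.22, -1.37 and -1.65. Under saline the genotypes met on slide 1 alone, where Gli1 gave -1.19 and Gli2 gave -0.64 from 1 array each. Every one of these values has the sign of the value over all slides. With slide as a block and position on the slide as a linear term, 0 of the 4 calls under saline and 5 of the 8 calls after E2 were left. Gli1 then stood at -0.92 under saline (adjusted p = 0.298) and -1.10 after E2 (adjusted p = 0.0685), and Gli2 at -0.99 (adjusted p = 0.0851) and -1.58 (adjusted p = 0.0025). The calls after E2 that ended there were those of Ihh, Gli1 and Gli3.

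Cell type markers were set beside these genes by the summed linear level of each list, in units of the array's 75th percentile. The 12 stromal markers, among them Col1a1, Dcn and Hoxa10 and also Pdgfra and Hand2 of the target genes, summed to 419 to 515 in EAAE E2 mice, against 409 to 419 in EAAE saline mice. In WT mice they summed to 353 to 405 after E2, against 522 to 569 after saline. Of the 12, 9 fell and 1 rose, against 29.8% lower and 19.6% higher over all genes. This list was thus lower in the WT E2 group, as Ptch1, Gas1 and Boc were, and its part in those falls was not tested. Its median was -0.82, against -2.67 for Ptch1, -2.04 for Gas1 and -1.60 for Boc.

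The 14 epithelial markers, among them Epcam, Cdh1 and Krt18, summed to 222 to 264 in EAAE E2 mice, 218 to 274 in EAAE saline mice, 139 to 148 in WT E2 mice and 137 to 157 in WT saline mice. The WT sums overlapped, while 4 of the 14 markers rose after E2 in WT and 2 fell. Over all genes 19.6% rose and 29.8% fell, the shares beside which the counts for E2 in WT in this paragraph are read. Elf3 rose by 2.16 and Krt7 by 0.93, and Foxa2 fell by 1.17. The part of epithelial cells in the rise of Ihh was not tested. Between genotypes under saline, 11 of 14 epithelial markers were higher in EAAE and 1 was lower, against 14.5% higher and 15.1% lower over all genes. Ihh stood at -1.42 there, which was not called. The 8 endothelial markers summed to 30.2 to 34.5 in EAAE E2, 27.0 to 30.2 in EAAE saline, 21.4 to 22.1 in WT E2 and 31.8 to 37.1 in WT saline mice. Of the 9 tested adipocyte markers all fell after E2 in WT, with sums of 59.9 to 287 in EAAE E2, 39.3 to 215 in EAAE saline, 3.46 to 26.0 in WT E2 and 29.3 to 198 in WT saline mice. The 9 macrophage markers summed to 38.2 to 135 in EAAE E2, 35.9 to 52.4 in EAAE saline, 70.4 to 89.0 in WT E2 and 112 to 174 in WT saline mice. The 8 nerve and Schwann cell markers summed to 18.6 to 20.8 in EAAE E2, 17.8 to 21.0 in EAAE saline, 41.6 to 42.9 in WT E2 and 12.03 to 14.08 in WT saline mice. That sum was highest in WT E2, as Ihh was, but followed Ngfr, which rose by 3.92, whereas 4 of the 8 markers fell and the list's median was -0.45. The 8 oviduct and ciliated cell markers summed to 2.07 to 2.38 in EAAE E2, 1.90 to 2.26 in EAAE saline, 1.33 to 1.63 in WT E2 and 2.47 to 2.64 in WT saline mice, and 5 of them fell after E2 in WT. The 10 smooth muscle markers summed to 267 to 440 in EAAE E2, 377 to 417 in EAAE saline, 436 to 530 in WT E2 and 437 to 516 in WT saline mice. Of these 10, 7 were lower and 1 higher in EAAE than in WT after E2, beside the lower Gli1 and Gli2. Under saline 1 was lower and 1 higher. Over all genes 24.5% were lower and 33.5% higher after E2, and 15.1% and 14.5% under saline. The part of these lists in the results was not tested. All 14 epithelial, 12 stromal and 10 smooth muscle markers were well above background on every array of some group.

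Genes elsewhere in the pathway were read from 6 further lists of 70 genes, of which 63 were tested. In EAAE, E2 changed 4 of the 63 (3 higher, 1 lower), and in WT 35 (14 higher, 21 lower), with medians of -0.0037 in EAAE and -0.12 in WT. The shares over all genes, against which these counts and those of the single lists are read, were 1.44% in EAAE and 49.4% in WT (19.6% higher and 29.8% lower).

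**Figure D4:**
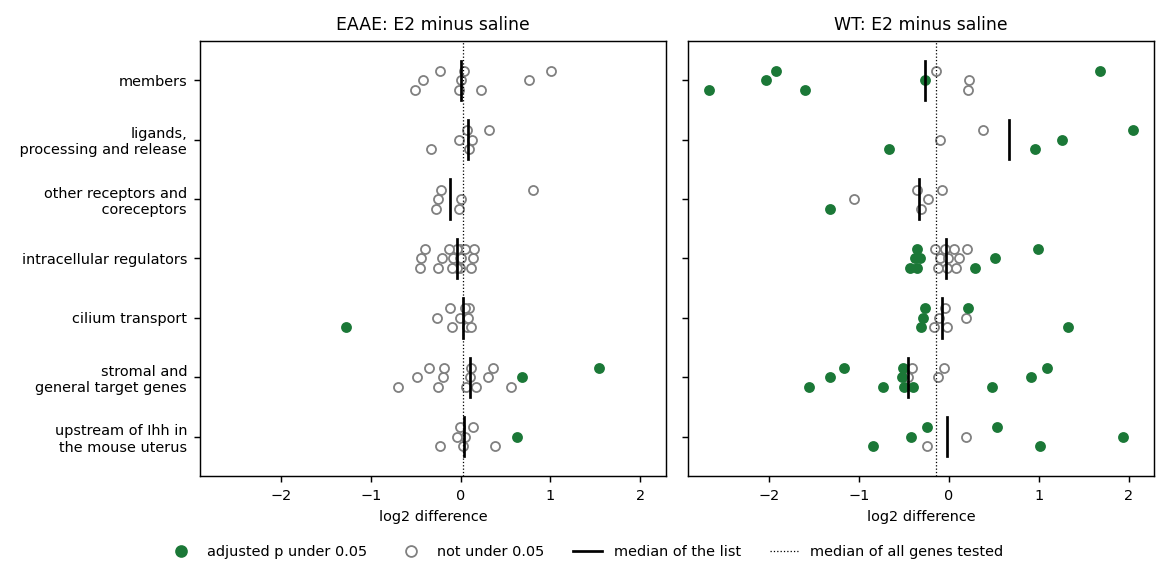
E2 response (log2 difference, E2 minus saline) of every tested gene of the 9-gene set ("members") and of the 6 further pathway lists, in EAAE uteri (left) and WT uteri (right). Each point is 1 gene, filled green with an adjusted p under 0.05, short bars are list medians and the dotted line is the median of all genes tested. In EAAE 4 points of the further lists are filled, and in WT 35.

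Among ligands and their processing and release, E2 in WT raised 3 of 6 tested genes and lowered 1, with a median of 0.67. The ligand Dhh rose by 1.25 (SE 0.16), to -0.26 ± 0.34 after E2 against -1.51 ± 0.02 after saline (SD, n = 3). The secreted protein Scube1 rose by 2.05 (SE 0.19, adjusted p = 1.3e-05), to 3.33 ± 0.28 after E2 against 1.28 ± 0.20 after saline. Dhh stood at 0.13 in EAAE, and the responses differed by -1.13 (SE 0.23, adjusted p = 0.00334). All 3 Scube1 probes rose in WT (1.57 to 2.40), and Scube1 stood at -2.88 in EAAE against WT uteri under saline and at -4.62 after E2. Hhat, which adds palmitate to the ligand, rose by 0.96 on its brighter probe and stood at -0.28 on the other. Shh and Scube3 were well above background on no array.

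Other receptors and coreceptors were read as well. Cdon, the coreceptor most like Boc, stood at -0.23 in WT (adjusted p = 0.225), and was 0.61 higher in EAAE than in WT uteri after E2. Lrp2, a large endocytic receptor, was 3.06 higher in EAAE after E2 (SE 0.42), and its 4 probes gave 2.17 to 3.06.

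Intracellular regulators moved less, with 3 of 18 higher and 5 lower in WT and a median of -0.03. The kinase Csnk1a1 rose by 0.99 (SE 0.14), and all 5 of its probes rose (0.56 to 1.75). The Gli inhibitor Sufu fell by 0.43 on its brighter probe and stood at 0.26 on the other. Of cilium transport genes, 2 of 10 were higher and 3 lower in WT. Ttc21b, a part of the complex that carries cargo back along the cilium, stood at 1.33 for E2 in WT (SE 0.20, adjusted p = 0.000375). It was well above background on 3 of 3 WT E2 and 2 of 3 WT saline arrays and passed the filter through WT E2 alone. In EAAE it was called lower (adjusted p = 0.0192), but 0 of 3 EAAE E2 arrays read it well above background, so no fold is given.

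Of stromal and general target genes, 8 of 15 were lower and 3 higher in WT, with a median of -0.45. Foxf1, among the 3 higher, passed the filter through WT E2 alone, where it read highest. Its call there supports nothing by itself. Nr2f2, the nuclear receptor through which Ihh acts in uterine stroma, read 3.95, 4.37 and 4.28 in EAAE E2 mice, against 3.75, 3.88 and 3.89 in EAAE saline mice. It read 1.86, 1.68 and 2.04 in WT E2 mice, against 3.26, 3.55 and 3.46 in WT saline mice, so the WT E2 mice again lay lowest. It fell by 1.56 in WT (SE 0.13, adjusted p = 8e-06) and the responses differed by 1.92 (SE 0.19). The signalling protein Bmp2 fell by 1.33 (SE 0.28), and the transcription factor Hand2 fell by 1.17 (SE 0.13).

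In EAAE, E2 raised 2 of these 15 genes. Osr1, a zinc finger transcription factor, read 1.95, 2.15 and 2.01 in EAAE E2 mice, against 0.57, 0.53 and 0.40 in EAAE saline mice, without overlap. The WT readings were -0.61, -0.47 and -0.46 after E2, against -0.02, 0.05 and -0.05 after saline. It rose by 1.54 in EAAE (SE 0.08, adjusted p = 7.3e-05) and fell by 0.51 in WT (SE 0.08), and its second probe gave 1.52 and -0.41. Hand2 rose by 0.69 in EAAE on its brighter probe (SE 0.13, adjusted p = 0.0406), and its second probe gave 0.63 (adjusted p = 0.0581 over all probes), which did not pass. Under saline the cell cycle gene Ccnd2 was 1.89 higher in EAAE than in WT uteri (SE 0.11). Of the list's 15 genes, 7 were higher and 2 lower there, against 14.5% higher and 15.1% lower over all genes. Foxd1, among the 7, passed the filter through EAAE saline alone, where it read highest, so its call supports nothing by itself.

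Of genes upstream of Ihh in the mouse uterus, 3 of 8 were higher and 3 lower in WT. Pgr, the progesterone receptor, read -1.21, -1.17 and -2.26 in EAAE E2 mice, against -1.83, -1.91 and -2.03 in EAAE saline mice. It read 0.51, 0.62 and 0.56 in WT E2 mice, against -1.31, -1.26 and -1.56 in WT saline mice. Mouse 3 of the EAAE E2 group, highest of the EAAE mice for Ihh, was lowest of them for Pgr. Pgr rose by 1.94 in WT (SE 0.24, adjusted p = 9.6e-05), and its second probe gave 4.63. The responses differed by -1.56 (SE 0.34, adjusted p = 0.00551).

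Fkbp4, a chaperone of the progesterone receptor, rose by 1.02 in WT (SE 0.11), and Gata2, a transcription factor that acts with it, fell by 0.43 (SE 0.12). Sox17, a transcription factor of uterine epithelium and of endothelium, fell by 0.84 in WT (SE 0.13) and rose by 0.63 in EAAE on its brightest probe (SE 0.13, adjusted p = 0.0477). The 3 other Sox17 probes gave 0.17 to 0.72 in EAAE, none past the threshold over all probes. Its brightest probe was 1.24 higher in EAAE than in WT uteri under saline and 2.72 higher after E2. Esr1 stood at -0.24 for E2 in WT on its brighter probe (adjusted p = 0.0544) and at 0.14 on the other. Under saline its probes disagreed on genotype too, at 0.41 and -0.28. Areg was well above background on no array.

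Genes whose levels followed a member most closely were ranked by Pearson r over the 12 arrays among 16502 genes measured on every array, as a description. The arrays share their groups, so a like pattern of group means is enough for a high r. For Ihh the first was Zfand5 (r = 0.973), with Thop1, Nckap5l and Uba1 among the first 5. For E2 in WT these stood at 0.35, 0.19, 0.53 and 0.20, beside 1.68 for Ihh, as r does not measure the size of a change. For Ptch1 it was Nxpe2 (r = 0.978), followed by Tram1l1, and for Gli1 it was Amph (r = 0.971), followed by Rit2. For Gas1 it was C530014P21Rik (r = 0.987), with Glrx and Myorg among the first 5. For EAAE against WT under saline, Amph stood at -1.41 and Rit2 at -2.61, beside -1.43 for Gli1. Pcdh18, also among the first 5 for Ptch1, stood at -2.16 for E2 in WT, beside -2.67 for Ptch1.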

How the data were processed

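The 12 single-colour arrays were read by the authors with Agilent Feature Extraction, version 9.5.3.1 per the file headers and 9.5 per the submitters' processing notes. Its processed signal, as deposited, is an intensity on a linear scale. It is background-corrected within each array and unscaled between arrays, and the series' deposited value table held the same intensities. Coordinates are those of the files (mm7). The members and lists were chosen with earlier results of these data known.

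Control spots and spots marked as outliers (56 to 117 per array) were left out, the deposited intensity was taken to log2, the array's 75th percentile over non-control spots was subtracted, and spots of a probe were averaged. Median intensity per array was 162.5 to 249.5 over a median local background of 62.0 to 81.0, and the number of mice limits the precision. A probe was tested where every array of some group read it well above background (29016 of 41174), and the tested probe with the highest mean stood for the gene (19301 genes). Symbols came from accessions or names matched to a RefSeq table (GRCm38.p6, names only), and 8440 probes kept the name in the files.

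The 4 groups come from the labels. Differences came from lmFit and eBayes of limma 3.58.1 in R 4.3.3 (2-sided, Benjamini-Hochberg, threshold 0.05). The same fit was also run on data simulated with the means and spreads of these arrays. Tables and plots used pandas 2.3.3, matplotlib 3.10.9, numpy 2.4.6 and Python 3.11.15. Alternatives were array median and quantile scaling, normexp (offset 50), the deposited table, other filters and probe rules, slide and position terms, a replicate block, the compared arrays alone and leaving out each array. Named genes were drawn from all members, up to 3 called genes with the smallest adjusted p in each further list and comparison, 11 genes fixed for the WT response, and the 5 genes most like each of Ihh, Ptch1, Gli1 and Gas1. Several of these are not described above. Among them are Disp2 and Gpc3, both called higher in EAAE than in WT uteri under saline, Disp2 having passed the filter through the EAAE groups alone. The values of 1 listed gene are not reported here. The labels do not say that mice of a group differ in litter or batch.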

Additional observations from a re-analysis of the deposited data

Results flagged for a closer look

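The E2 response differed between genotypes, by limma's test of the difference itself (EAAE minus WT, n = 3 mice per group), for 5 of the 9 genes. The difference was 2.446 for Ptch1 (adjusted p = 0.00462), 1.528 for Gas1 (adjusted p = 0.000291) and 1.643 for Boc (adjusted p = 0.000245). It was -0.6284 for Gli2 (adjusted p = 0.0149), where neither response passed alone. It was 2.934 for Hhip (adjusted p = 0.0103), of whose EAAE saline and WT E2 readings 0 were well above background. Hhip passed the filter through WT saline alone, so its call supports nothing by itself. Among the 8 other genes 4 were called. Over all genes, 37.3% were called in this comparison.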

How the results depend on the processing

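With 3 mice a group, calls near the threshold depended on the setting. Of the 9 genes, 4 were called between EAAE and WT under saline, 2 with the array median, with no filter on dim probes or with slide as a block, 0 with slide as a block and position as a linear term, and 2 to 5 without 1 array. After E2, 8 were called, 5 with slide and position, and 7 to 8 without 1 array. E2 in EAAE changed 0 with or without any 1 array, E2 in WT 6, and 4 to 6 without 1 array, and the response difference was called for 5, and for 5 to 6 without 1 array. The cause of these shifts was not tested.

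Values that turned sign were not called in the fits reported above, with Hhip and Ulk3 under saline as exceptions. For E2 in EAAE the values without 1 array ran between -0.0624 and 1.365 for Ihh, -0.4402 and 0.0276 for Ptch1, -0.0931 and 0.0839 for Smo, -0.0606 and 0.472 for Gli1, -0.0796 and 0.0118 for Gli3, and -0.096 and 0.1614 for Boc. There Ptch1 stood at 0.154 with slide and position, Smo at -0.0663 (quantile), -0.0247 (normexp) and -0.0255 (slide), and Gli3 at 0.0218 (array median). For the response difference, Gli1 stood at -0.0772 (array median), -0.0066 (quantile), -0.0012 (normexp), -0.188 (slide, alone and with position) and -0.279 to 0.254 (without 1 array). Under saline, with slide and position, EAAE against WT stood at 0.469 for Ihh, 0.472 for Ptch1, 0.539 for Hhip and -0.0343 for Ulk3. After E2, Smo stood at 0.0503 (quantile), 0.0193 (slide and position) and -0.1264 to 0.0507 (without 1 array).

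Over all genes, E2 in EAAE was called for 132 higher and 145 lower, for 72 and 49 with no filter on dim probes, 66 and 73 with slide as a block, 3 and 1 with slide and position, and 5 and 2 with only the arrays compared. Without EAAE saline mouse 2 it was called for 38 and 25, the fewest without any 1 array. With slide as a block, genotype under saline was called for 1759 higher and 1869 lower (2803 and 2911 without the block). With slide and position the counts were 230 and 191 for that comparison, 2576 and 3676 for E2 in WT and 2925 and 2275 for genotype after E2.

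Mice of the same number in different groups did not deviate together (r of -0.282 to 0.275, median 0.0305, 18 pairs), so the numbers do not pair them. Arrays of 1 slide had a higher median r (0.123, range -0.183 to 0.354, 16 pairs) than arrays of different slides (-0.0173, range -0.357 to 0.259, 38 pairs). The ranges overlapped, and slide is no term of the fits reported above. With the replicate block, E2 in EAAE was called for 72 genes higher and 65 lower, Hhip lost its calls between genotypes (adjusted p = 0.08 under saline and 0.0672 after E2), and Gli3 gained one under saline (adjusted p = 0.0461).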
